A study of Mus musculus with 24 samples.

Results

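The cytoplasmic ribosomal protein genes are the genes that encode the protein subunits of the cytosolic ribosome. They were chosen by symbol alone, as the genes with 1 symbol in the array annotation that is written Rpl or Rps with a number (and at most a final a, l or x), Rplp0 to Rplp2, or Rpsa. The rule took 59 of the 19938 genes measured, 37 of the large and 22 of the small subunit, each read by the probe set with the highest mean over all 24 arrays. All 59 identifiers are in the RefSeq gene table of mouse assembly GRCm38.p6, which lists 1 of the 59, Rps4l, as a transcribed pseudogene. A further 16 symbols of the same pattern, among them Rpl3, Rpl11, Rpl39 and Rps27, lie only on probe sets that several genes share and were not analysed here, nor was Rps27a. No minimum level was set, so all 59 were tested.

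Total RNA of 24 mouse bone marrow samples, each on its own array, was compared to ask how the fusion oncogene BCR/ABLp190 and the dose of the B cell transcription factor Pax5 bear on leukaemia of precursor B cells. The leukaemia set held tumour-bearing marrow of 7 Sca1-BCR/ABLp190+Pax5+/- mice (Pax5+/- leukaemias) and of 2 Sca1-BCR/ABLp190 mice with both copies of Pax5 (BCR/ABL leukaemias), beside B220+ B cells from the marrow of 5 wild-type mice. The second set held preleukaemic proB and preB cells of 3 Sca1-BCR/ABLp190+Pax5+/- mice (Pax5+/- precursors) and 3 Sca1-BCR/ABLp190 mice (BCR/ABL precursors), and the same cells of wild-type mice on 4 arrays, where the series text counts 3 mice. All 4 oncogene-bearing groups carry the transgene under the Sca1 promoter, which is active in stem and progenitor cells, so the oncogene is not limited to B cells. The mice lived in a conventional facility with common pathogens. No ages were given.

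Values are log2 expression, so a difference of 1 is a doubling, and the number of arrays limits the precision. Arrays correlated at 0.906 to 0.995 over all probe sets, and 0 pairs were identical. The B lineage markers (14 measured) had a mean log2 level of 11.72 to 12 in B220+ cells, 10.8 to 11 in the 3 precursor groups, 8.14 to 10.28 in the Pax5+/- leukaemias and 7.95 to 8.41 in the BCR/ABL leukaemias. Pax5 itself had 8.37, 10.30 and 12.06 as lowest, median and highest in the Pax5+/- leukaemias and 8.10 and 8.39 in the BCR/ABL leukaemias, against 12.20 to 12.44 in B220+ cells. It had 11.58 to 12 in the Pax5+/- precursors, 11.93 to 12.19 in the BCR/ABL precursors and 11.81 to 12.02 in wild-type precursors. The BCR/ABL leukaemias, which keep both copies, were thus at the low end of the leukaemias, and the level of Pax5 RNA does not follow the labelled copy number there. Whether its probes lie in the deleted part was not examined. The labels name no sort for the leukaemic marrow. In such bulk RNA, fewer cells of a type and less RNA per cell cannot be told apart. By the female transcript Xist and the Y-linked gene Eif2s3y, both wild-type groups were at female levels (Xist 12.25 to 12.70) and the BCR/ABL precursors at male levels (Xist 6.24 to 6.49, Eif2s3y 9.14 to 9.79), while the other groups were mixed.

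A ribosome holds a small subunit, which reads the messenger RNA, and a large subunit, which joins amino acids, and most of its proteins are present in equal number. The genes are therefore known to be expressed at high and matched levels in most tissues, and many of their messages begin with a short pyrimidine tract, the TOP motif, through which mTOR and the protein LARP1 regulate their translation. A few members have paralogues expressed in particular tissues, and some, such as Rpl5 and Rps27l, also act on the p53 inhibitor Mdm2.

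Start site sequences are shown for the members on which the results below turn, because their messages are classed by what lies at the start. RefSeq's promoter table of GRCm38.p6 (250 bases before and 50 after the start) held 47 of the 59 genes. A TOP-like match (the letters CTTTT, the variant CTTTC, the variant CTTCC, or the variant CTCTT, on the gene's strand, from 10 bases before to 15 after the start) was found in 18 of 47, or 38.3%, against 12.6% of all 27025 promoters in the table. The ETS factor motif CCGGAAG, read on both strands over the 300 bases, was found in 17 of 47, or 36.2%, against 9.14% of all. CTTCC is part of the reverse of CCGGAAG, so the matches can overlap. Each line gives 40 bases before the start and the 20 from it, 5′ to 3′ on the gene's strand, with TOP-like and ETS matches in capitals.
Rps27l, chr9:66946046-66946105 (plus strand): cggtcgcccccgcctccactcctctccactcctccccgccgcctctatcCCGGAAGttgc
Rpsa, chr9:120127726-120127785 (plus strand): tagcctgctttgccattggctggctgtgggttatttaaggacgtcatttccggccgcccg
Rpl24, chr16:55966235-55966294 (plus strand): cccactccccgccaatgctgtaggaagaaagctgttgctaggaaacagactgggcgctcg
Rps2, chr17:24720023-24720082 (plus strand): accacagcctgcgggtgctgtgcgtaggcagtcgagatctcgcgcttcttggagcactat
Rpl38, chr11:114668540-114668599 (plus strand): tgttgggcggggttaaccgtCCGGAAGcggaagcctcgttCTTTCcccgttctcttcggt
Rpl28, chr7:4792925-4792984 (plus strand): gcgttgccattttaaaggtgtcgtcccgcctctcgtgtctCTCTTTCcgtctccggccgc
Rps6, chr4:86857348-86857407 (minus strand): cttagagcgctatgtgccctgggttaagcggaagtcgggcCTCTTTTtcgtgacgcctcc
In these windows Rpl38, Rpl28 and Rps6 had a TOP-like match at the start, while Rps27l, Rpsa, Rpl24 and Rps2 had none. Rpsa, Rps2 and Rps6 had an ETS match elsewhere in the 300 bases. A match is a description of letters, and no match says only that these letters are not in the window.

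Most members were among the brightest genes of the arrays. Of the 59, 42 had a mean over the 24 arrays above 11 and 26 above 12, and 4 lay below 8. Their spread between arrays was small in the wild-type groups: the median SD of a member was 0.0634 in B220+ cells, against 0.108 over all genes, and 0.0709 in wild-type precursors, against 0.0845. In the Pax5+/- leukaemias it was 0.176, against 0.169 over all genes, so that there the members varied about as much as other genes. Over the 24 arrays Rpl19 (SD 0.0821), Rpl21 (0.0822) and Rpl10 (0.0875) varied least. Rpl24 (0.461), Rps27l (0.451) and Rpl12 (0.443) varied most.

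**Figure D1:**
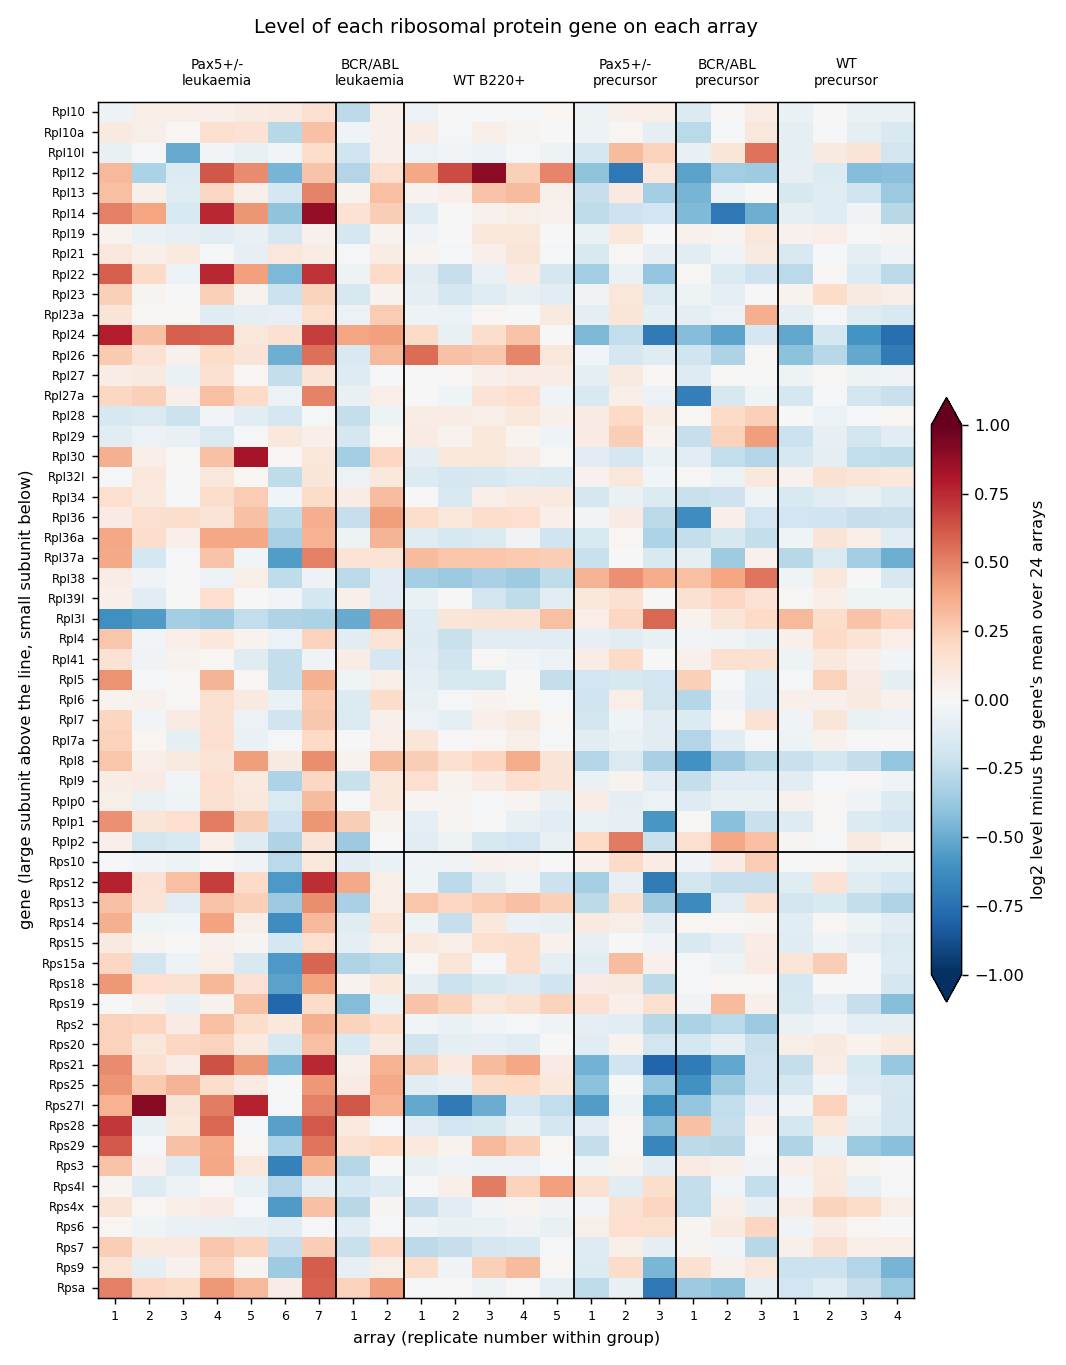
Log2 level of each of the 59 genes (rows, large subunit above the line) on each of the 24 arrays (columns, by group), as the difference from the gene's own mean over 24 arrays, on a colour scale that ends at 1 in either direction. Most differences are small, array 6 of the Pax5+/- leukaemias is low for 47 of 59 genes within its group, and Rpl38 is high in both oncogene-bearing precursor groups.

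Members moved together across arrays, with exceptions. As a description over the 24 arrays, Rpl10a (Pearson r = 0.899), Rpl22 (0.893) and Rps21 (0.889) correlated most with the mean of the other members. In 6 members r was below 0: Rpl3l (-0.426), Rpl39l (-0.244), Rpl38 (-0.157), Rps6 (-0.152), Rpl28 (-0.151) and Rpl29 (-0.00775). Outside the family, the genes whose level correlated most with the members' mean were Psmg4 (0.893), a proteasome assembly chaperone, Bola2 (0.846), an iron-sulfur cluster assembly factor, the small nucleolar RNA Snord49a (0.839), Polr1d (0.828), a subunit of RNA polymerases I and III, and the gene model Gm8624 (0.828). The arrays share groups and normalization, so these values describe this set of arrays.

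The first comparison set the Pax5+/- leukaemias (n = 7) against wild-type B220+ cells (n = 5). Log2 changes were within 0.5 of 0 for 57 of 59 members, with a median of 0.068 against -0.06 over all genes. Regardless of sign, the median change was 0.121 for the members and 0.174 over all genes. Of the members 8 rose and 3 fell by limma at a Benjamini-Hochberg adjusted p under 0.05, or 18.6% of 59, against 31.8% of all genes (12.9% higher, 18.9% lower). The arrays of the 2 groups did not overlap for 4 members upwards and 2 downwards, against 8.65% and 11.4% of all genes. The small subunit genes had a median of 0.091 (5 rose and 1 fell of 22), and the large subunit genes 0.043 (3 rose and 2 fell of 37). The direction of these counts depended on the scaling. When each array was centred on its median, which moved the median of all genes by -0.14, 1 member rose and 8 fell, and 16.4% of all called genes were higher rather than 40.5%. With cyclic loess 20 rose and 2 fell, and 54.1% of called genes were higher. The members' median stayed 0.129 to 0.177 above that of all genes under the 3 other scalings.

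Rps27l, the paralogue of the small subunit protein Rps27 and a known p53 target, rose most of the members that passed. Its log2 level on the 7 Pax5+/- leukaemias had a lowest value of 10.51, a median of 11.03 and a highest of 11.44, and the BCR/ABL leukaemias had 11.15 and 10.88. The B220+ cells had 10.02, 9.82, 10.03, 10.36 and 10.28. All 9 leukaemias lay above all 5 B220+ arrays, with no overlap. The change in the Pax5+/- leukaemias was 0.88 ± 0.156 (log2, SE), or 1.84-fold, with adjusted p = 0.000977 by limma, and it passed under all 21 alternatives (adjusted p 8.2e-05 to 0.00539). In the BCR/ABL leukaemias it was 0.91 ± 0.223 (adjusted p = 0.0117), which was lost without BCR/ABL leukaemia 1 (0.78, adjusted p = 0.122) and with array weights (0.0932). Precursors were not all lower than leukaemias: the wild-type precursors had 10.49, 10.76, 10.47 and 10.36, the Pax5+/- precursors 9.97, 10.48 and 9.92, and the BCR/ABL precursors 10.14, 10.28 and 10.45. The wild-type precursors overlapped the low end of the Pax5+/- leukaemias, and the rise over them, 0.46 ± 0.156 (adjusted p = 0.0289), was lost without any of Pax5+/- leukaemias 2 and 5 (adjusted p = 0.0551 and 0.0515) or wild-type precursors 1, 3 and 4 (0.0644, 0.0708 and 0.0981), with arrays centred on their median (0.066) and with only the 2 groups in the fit (0.0606). Rps27l has 1 probe set.

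Rpsa, a small subunit protein that is also known as the laminin receptor, was the second largest rise among the members that passed. It had 12.26, 12.51 and 12.77 as lowest, median and highest log2 level in the Pax5+/- leukaemias, and 12.41 and 12.60 in the BCR/ABL leukaemias. In B220+ cells it had 12.16, 12.19, 12.13, 12.19 and 12.09. The 7 Pax5+/- leukaemias lay above every B220+ array. The change was 0.36 ± 0.084 (1.29-fold, adjusted p = 0.00556 by limma), and its 4 other probe sets gave 0.49 to 0.82, all called. With arrays centred on their median it was 0.22 (adjusted p = 0.0718). The BCR/ABL leukaemias had 0.35 ± 0.12, which did not pass (adjusted p = 0.0527).

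Rps2, a small subunit protein at the path of the messenger RNA, showed a small and narrow difference. Its log2 level had a lowest value of 12.85, a median of 12.98 and a highest of 13.12 in the Pax5+/- leukaemias, and 12.99 and 12.95 in the BCR/ABL leukaemias, against 12.74, 12.70, 12.74, 12.75 and 12.73 in B220+ cells. The groups did not overlap. It rose by 0.25 ± 0.0495 in the Pax5+/- leukaemias (adjusted p = 0.00229 by limma), but not with arrays centred on their median (0.11, adjusted p = 0.168) or with the mean of its probe sets (adjusted p = 0.0822). Its other probe sets gave 0.21 ± 0.0511 (adjusted p = 0.00702 by limma) and 0.20 ± 0.188, which did not pass (0.437). For the BCR/ABL leukaemias the rise of 0.24 ± 0.0708 (adjusted p = 0.0293) was lost in 11 of 16 alternatives, among them without BCR/ABL leukaemia 1 (0.171) or 2 (0.0719) or B220+ array 2 (0.0584), 3 (0.0505) or 5 (0.0519).

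Rpl28, a large subunit protein that baker's yeast lacks, went the other way. Its log2 level was 13.16 at the lowest, 13.23 at the median and 13.36 at the highest in the Pax5+/- leukaemias and 13.14 and 13.33 in the BCR/ABL leukaemias, against 13.45, 13.45, 13.44, 13.48 and 13.43 in B220+ cells. Every leukaemia lay below every B220+ array. It fell by 0.19 ± 0.0475 in the Pax5+/- leukaemias (adjusted p = 0.00762 by limma), and its 4 other probe sets fell by 0.18 to 0.20. With cyclic loess the change was -0.10 (adjusted p = 0.224). In the BCR/ABL leukaemias it fell by 0.21 ± 0.0679 (adjusted p = 0.0404), which was lost in 11 of 16 alternatives, without BCR/ABL leukaemia 1 (0.39) and without each B220+ array 1 to 5 (0.0576, 0.0683, 0.0644, 0.0669 and 0.0621).

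The paralogues that are known from other tissues, Rpl3l, Rpl10l and Rpl39l, were dim, as was Rps4l, listed as a transcribed pseudogene. Rpl3l, the muscle paralogue of Rpl3, had 5.38, 5.65 and 5.75 as lowest, median and highest in the Pax5+/- leukaemias, against 5.87, 6.11, 6.13, 6.13 and 6.29 in B220+ cells, with no overlap. It fell by 0.51 ± 0.137 (adjusted p = 0.014 by limma) and passed under all 20 alternatives that kept it, though a filter at a mean log2 level of 6.75 left it out. Rps4l had 7.14, 7.20, 7.66, 7.37 and 7.56 in B220+ cells and 6.85 to 7.17 in the Pax5+/- leukaemias, where it fell by 0.32 ± 0.0906 (adjusted p = 0.0169). That call was lost without B220+ array 5 (adjusted p = 0.0501). Its other probe set gave -0.57 there (adjusted p = 0.00447 by limma). Its fall of 0.39 ± 0.129 in the BCR/ABL leukaemias (adjusted p = 0.0472) was lost without either BCR/ABL leukaemia (0.218 and 0.11) and without B220+ array 3, 4 or 5 (0.0777, 0.0666 and 0.0885), with array weights (0.203), with cyclic loess (0.0803) and with a prior that follows level (0.06). The testis paralogues did not pass here: Rpl10l had -0.04 ± 0.0918 (adjusted p = 0.788), against 0.08 ± 0.0549 (0.28) for Rpl10, and Rpl39l had 0.11 ± 0.0661 (0.223).

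The other calls against B220+ cells were small rises. Rpl24, a large subunit protein whose loss of a copy is known to slow Myc-driven lymphoma in mice, had a change of 0.35 ± 0.122 (adjusted p = 0.0462 by limma). It was lost in 10 of 21 alternatives, with 8 of the 12 arrays left out singly: Pax5+/- leukaemias 1, 3, 4 and 7 (adjusted p = 0.08, 0.0755, 0.0779 and 0.0794) and B220+ arrays 1, 2, 3 and 5 (0.0659, 0.118, 0.0709 and 0.103). Rpl38, a large subunit protein known for its role in translating Hox messages, rose by 0.29 ± 0.0579 (adjusted p = 0.00232), the lowest leukaemia and the highest B220+ array both being at 12.41, and was lost with arrays centred on their median (0.15, adjusted p = 0.0914). Rps20 (0.24), Rps7 (0.30) and Rpl4 (0.23), which lines the exit tunnel, also passed (adjusted p = 0.0304, 0.0285 and 0.0218). Rpl4 was lost without B220+ array 2 (0.062) and with arrays centred on their median (0.09, adjusted p = 0.39). Centring also ended the calls of Rps20 (0.10, adjusted p = 0.358) and Rpl24 (0.21, 0.202), and the mean of all its probe sets that of Rpl24 (0.28, 0.0692). Rps20 was lost after quantile normalization again (0.0573) and without any of Pax5+/- leukaemias 1, 3, 4 and 7 or B220+ arrays 1 to 4 (adjusted p up to 0.0751), and Rps7 without any of leukaemias 1 and 4 or B220+ arrays 1 to 3 (up to 0.0689). The count itself moved by over 1.5 times with single arrays: it was 18 higher and 3 lower without Pax5+/- leukaemia 6, 5 higher and 3 lower without leukaemia 1 or 4 or B220+ array 1 or 3, and 4 higher and 3 lower without B220+ array 2. Of all genes 12.9% were higher and 17.7% lower without leukaemia 6, and 10.3% to 12% higher and 13.9% to 17.7% lower without one of the others.

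Of members with known roles in signalling or disease, several did not pass. Rps6, the substrate of S6 kinase, had 13.25 to 13.38 in the Pax5+/- leukaemias and 13.29 to 13.33 in B220+ cells, a difference of 0.00 ± 0.036 (adjusted p = 0.968 by limma). Of the stalk proteins, which recruit elongation factors to the large subunit, Rplp0 had 0.06 ± 0.0713 (0.536), Rplp1 0.30 ± 0.109 (0.0508) and Rplp2 0.04 ± 0.0834 (0.719). Rpl5, which carries the 5S RNA and binds Mdm2, had 0.26 ± 0.11 (0.0837), and Rpl22, needed for T cell development, 0.41 ± 0.187 (0.111). Rps19, the gene most often mutated in Diamond-Blackfan anaemia, had -0.25 ± 0.151 (0.229), and the X-linked Rps4x 0.08 ± 0.121 (0.651).

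**Figure D2:**
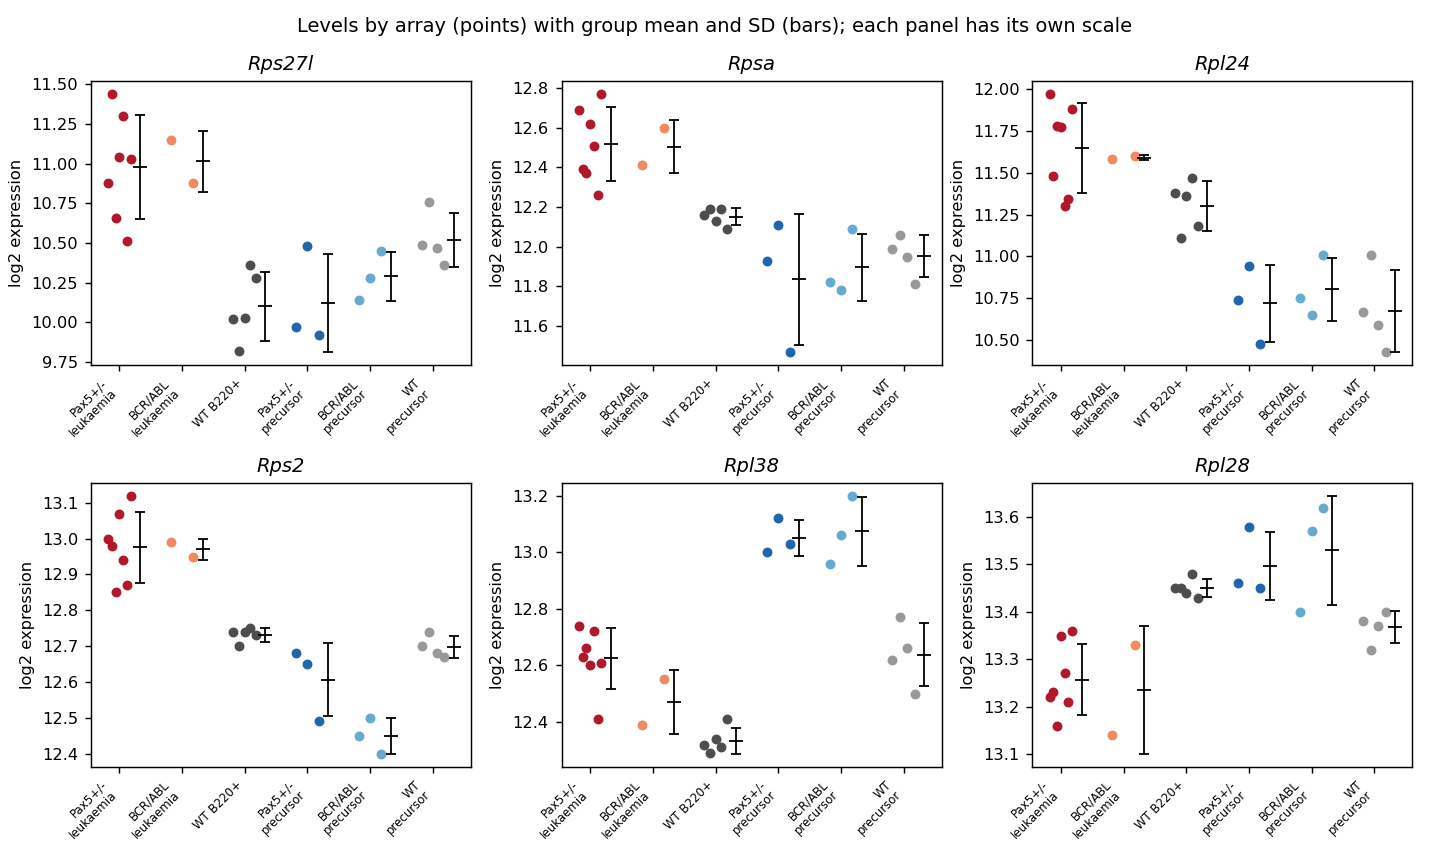
Log2 level of Rps27l, Rpsa, Rpl24, Rps2, Rpl38 and Rpl28 (panels) on each array (points) in the 6 groups, with the group mean and SD. Rps27l, Rpsa and Rps2 of the Pax5+/- leukaemias lie above the B220+ arrays without overlap, Rpl28 below them, and Rpl38 is highest in both oncogene-bearing precursor groups.

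In the BCR/ABL leukaemias (n = 2) against the same B220+ arrays, Rps27l and Rps2 rose and Rps4l and Rpl28 fell, with the values above. These 4 are 6.78% of the members, against 21.4% of all genes (9.48% higher, 11.9% lower). The members' median was -0.006, against -0.073 over all genes. Between these groups the arrays did not overlap for 10 members upwards and 9 downwards, against 16.9% and 26.6% of all genes. Without BCR/ABL leukaemia 1 no member passed, against 6.33% of all genes higher and 4.88% lower, and the median was 0.1. Without BCR/ABL leukaemia 2, 1 member rose and 3 fell, against 10.9% and 13% of all genes, with a median of -0.072. Without any 1 of B220+ arrays 1 to 5, 1 or 2 rose and 0 or 1 fell, against 7.44% to 8.37% and 8.95% to 11.5% of all genes. With arrays centred on their median 19.1% of all called genes were higher and with cyclic loess 56.5%, against 44.4%, while members had 1 higher and 3 lower, and 5 higher and 0 lower.

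Between the 2 leukaemia groups, which the labels tell apart by Pax5 copies, 0 of 59 members passed limma (1 at an unadjusted p under 0.05), against 1.87% of all genes (0.712% higher, 1.16% lower), and arrays did not overlap for 0 members, against 4.25% and 4.29% of all genes. Every difference was within 0.5 of 0, from -0.37 to 0.31, with a median of 0.061 and a median SE of 0.124. Regardless of sign, the median difference was 0.0786 for the members and 0.111 over all genes. Rps27l had levels of 10.51 to 11.44 in the Pax5+/- leukaemias and 10.88 to 11.15 in the BCR/ABL leukaemias. With 1 array left out at a time, the members' median ranged from -0.003 to 0.147. The groups also differed in cell markers: 7 of 14 neutrophil markers were lower in the Pax5+/- leukaemias (median -3.59) and 1 of 14 B lineage markers higher (1.24), whose part was not tested.

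Beside these comparisons, markers of other cells moved in the leukaemias. In the Pax5+/- leukaemias against B220+ cells 12 of 14 B lineage markers fell (median -2.50), while 11 of 14 monocyte and macrophage (1.80), 5 of 5 megakaryocyte (2.78) and 9 of 11 stroma and endothelium markers (2.09, with 1 lower) rose. Of 9 T and NK markers 2 rose, of 10 erythroid and 14 neutrophil markers 0 passed (medians 0.43, 1.01 and -0.10), and 14 of 16 proliferation genes rose (1.10). In the BCR/ABL leukaemias 13 of 14 B lineage markers fell (-3.57). There 8 of 14 neutrophil (3.36), 7 of 14 monocyte (2.12), 1 of 10 erythroid (2.39), 3 of 5 megakaryocyte (3.56) and 9 of 11 stroma markers (2.26) rose, as did 14 of 16 proliferation genes (1.44), while 0 of 9 T and NK markers passed (0.18). The part of cell make-up in the members' differences was not tested.

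The Pax5+/- leukaemias differed among themselves in the whole family. The mean deviation of the 59 genes from their 24-array means was 0.22, 0.04, 0.02, 0.21, 0.11, -0.23 and 0.30 on arrays 1 to 7. Array 7 was the highest of the 7 for 29 members and array 6 the lowest for 47. For comparison, the B220+ arrays spanned -0.03 to 0.06, the wild-type precursors -0.15 to 0.01, the Pax5+/- precursors -0.15 to 0.03, the BCR/ABL precursors -0.16 to -0.01, and the BCR/ABL leukaemias had -0.07 and 0.12. On array 6 the erythroid markers had a mean log2 level of 11.05 and neutrophil markers 9.90, the highest of the 7. Array 7 had 7.09 and 7.17, the lowest of the 7, and was also lowest for the monocyte (7.96), megakaryocyte (7.88) and stroma markers (7.56). The median of all genes was 7.11 on array 6 and 6.93 on array 7. The part of these in the members' spread was not tested.

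**Figure D3:**
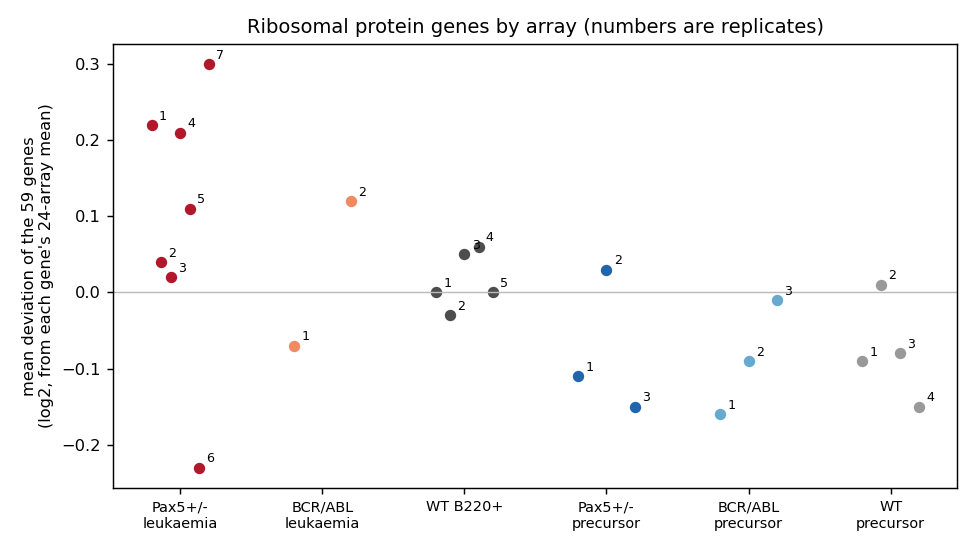
Mean deviation of the 59 genes from their own 24-array means (log2, vertical axis) for each array, by group, with replicate numbers beside the points. The Pax5+/- leukaemias span -0.23 (array 6) to 0.30 (array 7), more than any other group.

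In the precursor set, the Pax5+/- precursors (n = 3) were compared with wild-type precursors (n = 4). Rpl38 alone passed limma, or 1.69% of members against 4.17% of all genes (1.23% higher, 2.94% lower). The 2 groups' arrays did not overlap for 6 members upwards and 4 downwards, against 12.3% and 12% of all genes. The scaling moved the share of all called genes that were higher from 29.4% to 53.3% after quantile normalization again, where 2 members rose. All 59 differences were within 0.5 of 0, with a median of 0.006 against 0.029 over all genes. Regardless of sign, these medians were 0.0918 and 0.114. Rpl38 had log2 levels of 13.00, 13.12 and 13.03 in the Pax5+/- precursors and 12.96, 13.06 and 13.20 in the BCR/ABL precursors. The wild-type precursors had 12.62, 12.77, 12.66 and 12.50. Every oncogene-bearing precursor lay above every wild-type precursor and above the B220+ cells, which had 12.32, 12.29, 12.34, 12.31 and 12.41. The rise over wild type was 0.41 ± 0.0798 in the Pax5+/- precursors (1.33-fold, adjusted p = 0.0279). It was lost without Pax5+/- precursor 1 or 2 (adjusted p = 0.0532 and 0.0663), and without wild-type precursor 1, 2 or 3 (0.0766, 0.0526 and 0.0827). For the BCR/ABL precursors it was 0.44 ± 0.0798 (1.35-fold, adjusted p = 0.00687) and passed under all 16 alternatives. The other 3 probe sets of Rpl38 gave 0.37 to 0.42 and 0.40 to 0.43, all called. Both comparisons share the wild-type arrays, and the difference between the oncogene-bearing groups was -0.02 (adjusted p = 0.914). In the Pax5+/- precursors 3 of 9 T and NK markers (median -0.57) and 1 of 10 erythroid markers (-0.87) were lower than in wild type and 1 of 14 B lineage markers higher (0.13), while 0 of 16 proliferation genes passed (-0.87). Their part was not tested.

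The BCR/ABL precursors (n = 3) against wild-type precursors gave more calls. Rpl38, Rps9, Rps19 and Rpl39l rose and Rpl14, Rps2 and Rps20 fell, 11.9% of the members against 27.1% of all genes (11.6% higher, 15.5% lower). Arrays did not overlap for 6 members upwards and 12 downwards, against 19.3% and 22.9% of all genes. The members' median was -0.008, against 0.037 over all genes. Rpl14, a large subunit protein, had 8.92, 8.65 and 8.88 in the BCR/ABL precursors and 9.27, 9.24, 9.33 and 9.09 in wild-type precursors, with no overlap. The Pax5+/- precursors, at 9.11, 9.16 and 9.17, lay within the wild-type range. In the BCR/ABL precursors Rpl14 fell by 0.42 ± 0.0798 (adjusted p = 0.00797 by limma) and passed with each array left out. It did not pass after quantile normalization again (-0.15, adjusted p = 0.222), with cyclic loess (-0.18, 0.166) or with all 24 arrays in the fit (-0.42, 0.155). Rps2 had 12.45, 12.50 and 12.40 against 12.70, 12.74, 12.68 and 12.67. It too did not overlap and fell by 0.24 ± 0.059 (adjusted p = 0.0171), which was lost without BCR/ABL precursor 3 (0.0664), after quantile normalization again (0.0535) and with cyclic loess (-0.13, 0.189).

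The remaining calls rested on few arrays. Rps20 had 12.76, 12.84 and 12.71 in the BCR/ABL precursors and 12.99, 13.02, 12.97 and 13.03 in wild-type precursors, with no overlap. Its fall of 0.24 ± 0.0629 (adjusted p = 0.0242 by limma) was lost without BCR/ABL precursor 3 (0.0886) or wild-type precursor 1, 2 or 3 (0.0543, 0.0587 and 0.0539). Rps19 had 11.32, 11.67 and 11.41 against 11.20, 11.26, 11.13 and 10.93, also with no overlap. Its rise of 0.34 ± 0.1 (adjusted p = 0.0349) was lost without BCR/ABL precursor 2 or 3 (0.112 and 0.0765) or wild-type precursor 1, 3 or 4 (0.059, 0.0779 and 0.0593). The rises of Rps9 (0.40 ± 0.131, adjusted p = 0.0468) and of the dim Rpl39l (0.17 ± 0.0554, 0.0481) were each lost without any 1 of the 7 arrays. Rps9 has a second probe set, which did not move with the first (-0.14, adjusted p = 0.153), and the mean of both gave 0.13 (0.321). With all 24 arrays in the fit Rps9 (0.0865), Rpl39l (0.109), Rps19 (0.167) and Rps20 (0.0628) did not pass. Nor did Rps20 with cyclic loess (-0.14, 0.207), nor Rps19 (0.31, 0.0797), Rps9 (0.38, 0.065) and Rpl39l (0.14, 0.136) with arrays centred on their median. Rpl39l was 0.09 after quantile normalization again and with cyclic loess (0.276 and 0.281). Without BCR/ABL precursor 3, 1 member rose and 1 fell. Without BCR/ABL precursor 2 or wild-type precursor 4, 1 rose and 4 fell, and without wild-type precursor 1 or 3, 1 rose and 2 fell. In these 5 fits 3.98% to 13.7% of all genes were higher and 7.71% to 14% lower. Of all called genes 42.9% were higher, against 31.6% with arrays centred on their median, where 1 member rose and 3 fell, and 54.6% after quantile normalization again, where 4 rose and 1 fell. With cyclic loess 6 rose and 0 fell.

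Here sex and group cannot be told apart, since the BCR/ABL precursors were at male and the wild-type precursors at female levels of Xist and Eif2s3y. None of the 3 X-linked members passed: Rps4x had -0.23 ± 0.0863 (adjusted p = 0.0683 by limma), Rpl36a -0.22 ± 0.0872 (0.0789) and Rpl10 0.03 ± 0.0619 (0.698). Beside this comparison 6 of 9 T and NK markers (median -0.82) and 6 of 16 proliferation genes (-0.80) fell, 1 of 5 megakaryocyte markers rose (0.26), 4 of 11 markers of stroma and endothelium rose with 1 lower (0.15), and 1 of 14 B lineage markers rose and 2 fell (0.08). Their part in the members' differences was not tested. Between the 2 oncogene-bearing precursor groups 0 members passed (4 at an unadjusted p under 0.05), against 0.0251% of all genes (0.015% higher, 0.01% lower). Their median was 0.014 and their range -0.24 to 0.33. Arrays did not overlap for 1 member upwards and 1 downwards, against 7.05% and 9.41% of all genes. Of the 7 cell marker lists and the proliferation genes 0 genes passed between these groups, with medians from -1.2 (neutrophil) to 0.06 (T and NK), and in sex the Pax5+/- precursors were mixed and the BCR/ABL precursors were not.

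**Figure D4:**
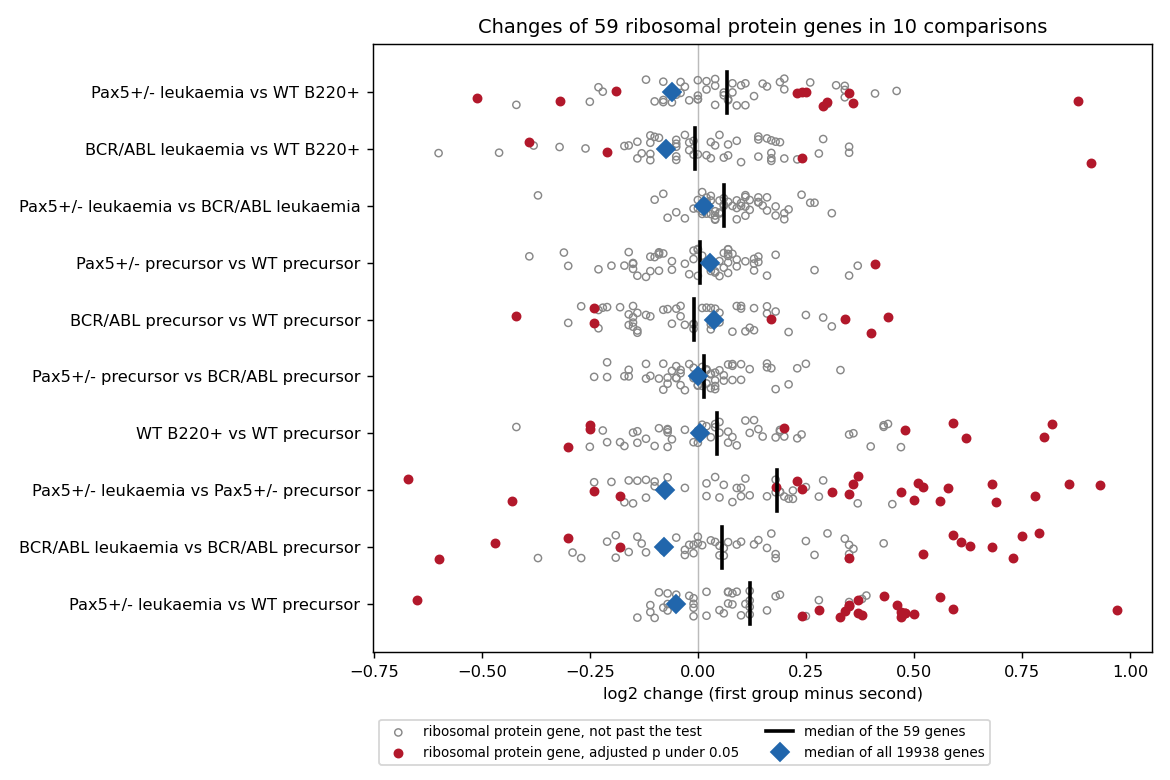
Log2 change of each of the 59 genes (points, horizontal axis) in the 10 comparisons (vertical axis), with genes at an adjusted p under 0.05 in red, the members' median as a black bar and the median of all genes as a blue diamond. The points spread most between leukaemias and precursors, where 18 rose and 4 fell for Pax5+/-, and 0 points are red between the oncogene-bearing groups of one stage.

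The wild-type groups show the family without the oncogene. In B220+ cells (n = 5) against wild-type precursors (n = 4) 6 members rose and 3 fell, or 15.3% of the members against 8.84% of all genes (4.57% higher, 4.26% lower). Arrays did not overlap for 19 members upwards and 11 downwards, against 11.2% and 11.3% of all genes. Rpl26, a large subunit protein known to bind the p53 message, had 10.42, 10.15, 10.13, 10.35 and 9.97 in B220+ cells and 9.45, 9.58, 9.35 and 9.16 in wild-type precursors. It rose by 0.82 ± 0.151 (1.76-fold, adjusted p = 0.00133 by limma) and passed under all 18 alternatives. Rpl24 had 11.38, 11.11, 11.36, 11.47 and 11.18 against 10.67, 11.01, 10.59 and 10.43. It rose by 0.62 ± 0.143 (adjusted p = 0.00747), also under all 18. Both genes separated the groups without overlap.

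Rpl12, a protein at the base of the stalk, had 8.88, 9.15, 9.39, 8.73 and 8.98 in B220+ cells and 8.41, 8.36, 8.06 and 8.08 in wild-type precursors, with no overlap. Its rise of 0.80 ± 0.208 (adjusted p = 0.0176 by limma) was lost without B220+ array 3 (0.0561) or wild-type precursor 3 or 4 (0.0648 and 0.0596). Rpl38 fell by 0.30 ± 0.0673 (adjusted p = 0.00606), which was lost with arrays centred on their median (0.0696). Rpl4 fell by 0.25 ± 0.0646 (0.0174), which was lost without B220+ array 2 (0.0528) or wild-type precursor 2 or 3 (0.0728 and 0.0557) and with arrays centred on their median (0.156). Rpl8 (0.48, adjusted p = 0.00168) rose with every array left out. Rpl37a and Rps15 also rose, and Rpl32l fell. These 3 calls were lost without wild-type precursor 4 (Rpl37a, 0.0617), without wild-type precursor 2 (Rpl32l, 0.0562) and without any of 8 of the 9 arrays (Rps15, up to 0.107). Without wild-type precursor 2, 5 members rose and 1 fell, and without wild-type precursor 4, 3 rose and 3 fell, against 2.97% and 3.08%, and 3.26% and 3.30%, of all genes. Of all called genes 51.8% were higher, against 64.8% with arrays centred on their median, where 0 members fell. Beside this comparison 16 of 16 proliferation genes (median -1.44), 1 of 10 erythroid (-0.72) and 1 of 9 T and NK markers (-0.59) fell and 4 of 14 B lineage markers rose (0.23), whose part was not tested.

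Between stages, the Pax5+/- leukaemias were compared with the Pax5+/- precursors. Of the members 18 rose and 4 fell, which is 30.5% and 6.78% of 59, against 16.4% and 28.4% of all genes, and 44.7% of all genes either way. Arrays did not overlap for 8 members upwards and 4 downwards, against 10.7% and 21.9% of all genes. The members' median was 0.182, against -0.076 over all genes. With arrays centred on their median 9 rose and 11 fell, and 21.2% of all called genes were higher rather than 36.6%. With cyclic loess 2 fell and 52.6% of called genes were higher. Without Pax5+/- precursor 1, 11 rose and 4 fell, without Pax5+/- precursor 3, 10 rose and 5 fell, and without Pax5+/- leukaemia 6, 28 rose and 4 fell. Of all genes 13.4%, 13.5% and 16.4% were higher and 21.9%, 21.7% and 27.4% lower in these. Besides cell stage, the leukaemias are unsorted marrow, and here 11 of 14 B lineage markers fell (median -1.82), 12 of 14 monocyte (2.35), 5 of 5 megakaryocyte (2.65) and 9 of 11 stroma markers (1.91, with 1 lower) rose, as did 5 of 16 proliferation genes (0.46). Their part was not tested.

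Rpl24 had the largest rise across this step among the members that passed. Its levels were 11.30, 11.77 and 11.97 (lowest, median and highest) in the Pax5+/- leukaemias, and 10.74, 10.94 and 10.48 in the Pax5+/- precursors. The BCR/ABL leukaemias had 11.58 and 11.60, and the BCR/ABL precursors 10.75, 10.65 and 11.01. Neither genotype's leukaemias overlapped its precursors. The change was 0.93 ± 0.147 for Pax5+/- (1.9-fold, adjusted p = 7.58e-05 by limma) under every one of 19 alternatives, and 0.79 ± 0.195 for BCR/ABL (adjusted p = 0.00328), lost in 1 of 14, with array weights (0.0709). Against wild-type precursors the Pax5+/- leukaemias had 0.97 ± 0.134 (adjusted p = 1.96e-05).

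Rpsa, Rps2 and Rps27l, which also rose in the Pax5+/- leukaemias against B220+ cells, rose over the precursors of both genotypes. The comparisons with B220+ cells and with precursors share the leukaemia arrays, so their rises are not independent. Rpsa had 11.93, 12.11 and 11.47 in the Pax5+/- precursors and 11.82, 11.78 and 12.09 in the BCR/ABL precursors, below all leukaemias. It rose by 0.68 ± 0.117 (adjusted p = 0.000178 by limma) and by 0.61 ± 0.155 (0.0041). Rps2 had 12.68, 12.65 and 12.49 in the Pax5+/- precursors, again below all leukaemias, and rose by 0.37 ± 0.0534 (2.7e-05) and by 0.52 ± 0.0707 (2.36e-05). Both calls of Rps2 passed under all alternatives run, as did the first of Rpsa, and the second was lost with array weights (0.0535) and with only the 2 groups in the fit (0.0521). Rps27l rose by 0.86 ± 0.172 (0.00064) and by 0.73 ± 0.227 (0.0147). The latter was lost without BCR/ABL leukaemia 1 (0.118), with array weights (0.146) and after quantile normalization again (0.077).

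Rpl38, Rpl28, Rps6 and Rpl3l were the members that fell from Pax5+/- precursors to leukaemias. Rpl38 fell by 0.43 ± 0.0692 (adjusted p = 9.18e-05 by limma) and, for BCR/ABL, by 0.60 ± 0.0916 (7.1e-05), under all alternatives. Against wild-type precursors the Pax5+/- leukaemias had -0.01 (0.899). Rpl28 had 13.46, 13.58 and 13.45 in the Pax5+/- precursors and 13.40, 13.57 and 13.62 in the BCR/ABL precursors, above the leukaemias of the same genotype. It fell by 0.24 ± 0.0548 (0.00178) and by 0.30 ± 0.0724 (0.00316), and with cyclic loess neither passed (0.128 and 0.184). The second was also lost without BCR/ABL leukaemia 1 (0.077) and with only the 2 groups in the fit (0.133).

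Rps6 had 13.42, 13.53 and 13.52 in the Pax5+/- precursors, above the 13.25 to 13.38 of the leukaemias. It fell by 0.18 ± 0.0444 (adjusted p = 0.00315 by limma), but by 0.06 with cyclic loess (0.371). Its fall in BCR/ABL, 0.18 ± 0.0587 (0.018), was lost in 6 of 14 alternatives, among them without BCR/ABL leukaemia 1 (0.165) or BCR/ABL precursor 3 (0.0971). Rpl3l had 6.06, 6.20 and 6.57 in the Pax5+/- precursors and fell by 0.67 ± 0.144 (0.00107), with no overlap. In BCR/ABL leukaemias its levels were 5.49 and 6.45, the widest pair of any member.

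Of the stalk proteins, Rplp1 had 12.89, 12.87 and 12.37 in the Pax5+/- precursors and 12.75 to 13.47 in the leukaemias, overlapping at the low end. Its rise of 0.50 ± 0.132 (adjusted p = 0.00539 by limma) was lost without Pax5+/- precursor 3 (0.33, 0.0707). Rplp2 had 7.89 and 8.25 in the BCR/ABL leukaemias and 8.41, 8.64 and 8.55 in the BCR/ABL precursors, without overlap. It fell there by 0.47 ± 0.154 (0.0193), lost without BCR/ABL leukaemia 1 (-0.29, 0.239) or BCR/ABL precursor 2 (0.0628), with array weights (0.0977) and with only the 2 groups in the fit (0.095). Rplp0 passed in none of the 10 comparisons.

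Other large rises in the Pax5+/- stage comparison were Rps21 (0.78, adjusted p = 0.00321 by limma), Rps12 (0.69, 0.0102), Rps25 (0.52), Rps29 (0.51) and Rpl8 (0.47, 0.000606), a protein near the peptidyl transferase centre. Rpl14 (0.56, 0.0186), Rpl22 (0.58, 0.0166) and Rpl5 (0.31, 0.0363) also rose. Each of the last 3 was lost in 4 to 8 of 19 alternatives: Rpl14 without Pax5+/- precursor 1 or 2 (0.06 and 0.0512), and Rpl22 without Pax5+/- precursor 1 or 3 (0.0632 and 0.0725). Rpl5 was lost without any of Pax5+/- leukaemias 1, 4 and 7 or Pax5+/- precursors 1 to 3 (up to 0.0929). Rps12 and Rps29 were lost without Pax5+/- precursor 3 (0.0822 and 0.153). Where called members had further probe sets, all 50 of those moved the same way and 48 passed, though probe sets of near-identical copies are not independent.

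For BCR/ABL leukaemias against BCR/ABL precursors 9 members rose and 4 fell, 22.0% of the members against 45.7% of all genes (18.1% higher, 27.6% lower), with a median of 0.057 against -0.078. There was no overlap of arrays for 19 members upwards and 8 downwards, against 22.8% and 38.8% of all genes. Besides those above, Rpl14 (0.75 ± 0.245, adjusted p = 0.0187 by limma), Rps25 (0.63), Rps21 (0.68), Rpl8 (0.59) and Rpl34 (0.35) rose. Rpl14 was lost without BCR/ABL leukaemia 1 or 2 (0.0576 and 0.089) or BCR/ABL precursor 2 (0.0609), with array weights (0.0763) and after quantile normalization again (0.46, 0.152). Rpl34 was lost without BCR/ABL leukaemia 2 (0.1), and Rps21 without either leukaemia or BCR/ABL precursor 1 or 2 (up to 0.202). Without BCR/ABL leukaemia 1, 9 rose and 1 fell with a median of 0.184, and without BCR/ABL leukaemia 2, 6 rose and 7 fell with a median of -0.038, against 15.4% and 18.7%, and 15.7% and 22.1%, of all genes. With cyclic loess 51.8% of all called genes were higher, against 39.6%, and 2 members fell. Beside this comparison 11 of 14 B lineage markers fell (median -3.11). Of the others, 7 of 14 neutrophil (2.94), 8 of 14 monocyte (2.12), 5 of 10 erythroid (1.85), 4 of 5 megakaryocyte (3.29) and 9 of 11 stroma markers (1.90, with 1 lower) rose, as did 9 of 16 proliferation genes (0.97). Their part was not tested.

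The Pax5+/- leukaemias against wild-type precursors gave 19 rises and 1 fall, 33.9% of the members against 32.2% of all genes (12.7% higher, 19.6% lower), with a median of 0.121 against -0.05. No overlap of arrays was seen for 7 members upwards and 1 downwards, against 8.31% and 13.7% of all genes. Rpl26 rose by 0.59 ± 0.141 (adjusted p = 0.00335 by limma), with levels of 9.37 to 10.41, under all 20 alternatives. Rpsa (0.56, 0.000482), Rps2 (0.28, 0.0002) and Rpl8 (0.48, 0.000282) also rose, and Rpl3l fell by 0.65 ± 0.13 (0.000874). Of all called genes 39.3% were higher, against 21.0% with arrays centred on their median, where 7 members rose and 5 fell, and 54.5% with cyclic loess, where 33 rose. The number of rises was 12 without Pax5+/- leukaemia 1, 11 without leukaemia 4 or 7, 10 without wild-type precursor 1 or 3, and 8 without wild-type precursor 4, while 9.74% to 12.8% of all genes were higher in these. Beside this comparison 11 of 14 B lineage markers (median -1.99) and 3 of 16 proliferation genes (-0.35) fell. Monocyte (11 of 14, 1.88), megakaryocyte (5 of 5, 2.82) and stroma markers (9 of 11, 1.98, with 1 lower) rose, and of 9 T and NK markers 1 rose and 2 fell (0.36). Their part was not tested. In a test of whether the Pax5 difference itself differed between leukaemias and precursors, 0 members passed (1 at an unadjusted p under 0.05), against 0.692% of all genes (0.226% higher, 0.466% lower). With 1 array left out at a time, the members' median in that test ranged from -0.042 to 0.156.

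Changes were also read by the start sequence, as a description. In the Pax5+/- leukaemias against B220+ cells the 18 with a match had a median of 0.103 (2 rose, 1 fell), and the 29 without had 0.068 (5 rose, 1 fell). Against the Pax5+/- precursors the medians were 0.174 (4 rose, 3 fell) and 0.181 (9 rose, 1 fell). The shares of all genes were 12.9% higher and 18.9% lower in the first comparison, and 16.4% and 28.4% in the second. Members with and without a match were not tested against each other.

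The genes that build ribosomes were read beside the ribosomal proteins, from lists chosen with earlier results of these data known. In the Pax5+/- leukaemias against B220+ cells 28 of 58 ribosome biogenesis genes rose and 3 fell (median 0.37), as did 15 and 5 of 34 translation factors (0.19). Of all genes 12.9% were higher and 18.9% lower. Nop58, a core protein of the small nucleolar RNPs that guide methylation of ribosomal RNA, rose by 1.17 ± 0.165 (adjusted p = 0.000188 by limma). Pno1, needed for the last cut of 18S RNA, rose by 0.89 ± 0.0917 (1.79e-05), and nucleolin, Ncl, by 0.84 ± 0.113 (0.000133). With arrays centred on their median 20 biogenesis genes rose and 5 fell, and with cyclic loess 40 and 2. Eif2s2 (0.68), Eif5a (0.51) and Etf1 (0.50), an initiation, an elongation and a release factor, rose in this comparison under each of the 3 other scalings.

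The mitochondrial ribosomal protein genes were evenly split there, with 12 of 77 higher and 12 lower (median 0.08, and -0.06 with arrays centred on their median). The shares of all genes were 12.9% higher and 18.9% lower. On a list of regulators 2 of 14 genes rose and 8 fell (median -0.23). That list holds both activators and inhibitors, and p53 genes such as its inhibitor Mdm2, so its counts give no direction. Larp1, which binds TOP messages, rose by 0.99 ± 0.0849 (adjusted p = 4.75e-06 by limma), while Rps6kb2, an S6 kinase, fell by 0.86 ± 0.068 (2.37e-06) and Mdm2 by 0.66 ± 0.084 (8.89e-05), each under the 3 other scalings too. Of 6 related genes outside the rule, Fau, which encodes a ubiquitin-like protein fused to Rps30, fell by 0.36 ± 0.0507 (0.000185) and Rsl1d1 rose by 0.69 (0.00382).

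In the BCR/ABL precursors against wild type 40 of 58 biogenesis genes fell and 0 rose (median -0.49), with 33 lower and 1 higher of 77 mitochondrial ribosomal protein genes (-0.27) and 18 lower of 34 translation factors (-0.32). Of all genes 15.5% were lower and 11.6% higher. After quantile normalization again the biogenesis count was 25 lower and 1 higher, and the mitochondrial count 14 lower and 4 higher. Polr1b, a subunit of RNA polymerase I, fell by 0.94 ± 0.0864 (adjusted p = 0.00223 by limma), Wdr43 by 0.67 ± 0.0779 (0.00237) and Rcl1 by 0.65 ± 0.0595 (0.00223), all in ribosomal RNA production or processing and under each of the 3 other scalings. The X-linked initiation factor Eif2s3x fell by 1.24 ± 0.133 (0.00234), in the comparison where sex and group cannot be told apart. From Pax5+/- precursors to leukaemias 40 of 58 biogenesis genes rose and 0 fell (median 0.56), against 16.4% and 28.4% of all genes. In the same comparisons the medians of the ribosomal protein genes were -0.008 and 0.182. The lists lie at unlike log2 levels: in the Pax5+/- leukaemias the ribosomal protein genes had a mean of 11.41 and the biogenesis genes 9.47. Whether the level bears on the size of the changes was not tested.

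**Figure D5:**
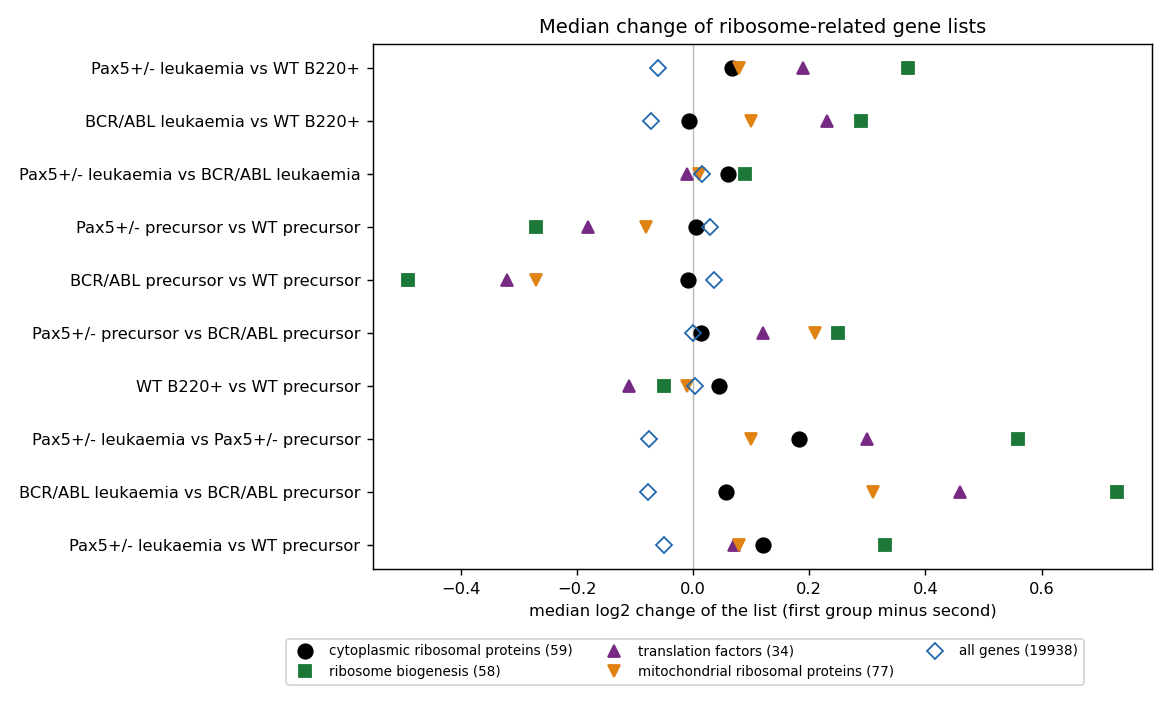
Median log2 change (horizontal axis) of the ribosomal protein genes (59), ribosome biogenesis genes (58), translation factors (34), mitochondrial ribosomal protein genes (77) and all genes, 1 marker each, in the 10 comparisons (vertical axis). The biogenesis median ranges from -0.49 in BCR/ABL against wild-type precursors to 0.73 in BCR/ABL leukaemias against precursors, while that of the ribosomal protein genes stays between -0.008 and 0.182.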

How the data were processed

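Total RNA was extracted with Trizol and labelled with biotin, per the labels' protocols, and each of the 24 samples was read on its own array. The deposited table gives log2 levels of probe sets. RMA and the package oligo are named in the submitters' processing notes, without versions, and joint normalization of all arrays is not stated there. The table holds 35556 probe sets with values of 3.8 to 14.31, of which 21789 have 1 gene symbol in the platform annotation, 1621 several and 12146 none. The first kind gave 19938 genes, each read by the probe set with the highest mean.

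Groups came from the sample titles, which call the replicates biological. They were compared with limma 3.58.1 in R 4.3.3 on all 19938 genes, two-sided, with Benjamini-Hochberg adjustment over all of them and 0.05 as the threshold. All 14 leukaemia set arrays were fitted together, as were the 10 of the precursor set, and the 24 arrays for the 4 comparisons between stages and the interaction. The fit was tested on simulated data. Array number limits precision. The labels give no batch.

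Named genes were fixed members (stalk proteins, Rpsa, Rps6, Rpl5, Rpl22, Rps19, Rps4x, Rpl10 and the paralogues), the largest called rises and falls (up to 3 each way within a set and 2 between stages), up to 3 genes a list with the smallest adjusted p, and the 5 genes most like the members' mean. Further called members were named after their values were seen. The members and lists were chosen with earlier results of these data known.

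Same-numbered BCR/ABL leukaemias and BCR/ABL precursors deviated together in each pair (correlations 0.167 and 0.183, over the limit of 0.1). With only 2 BCR/ABL leukaemias the deviations of one mirror those of the other, so these values are not independent. Same-numbered Pax5+/- and BCR/ABL precursors deviated together in all 3 pairs (0.208 to 0.25). Neither deviated with same-numbered wild-type precursors in all pairs (-0.131 to 0.0376 and -0.258 to 0.304), so the block is given under the processing alternatives. It was read from the values alone, as no label ties a number to a litter or day, and BCR/ABL precursor 1 reached 0.441 with wild-type precursor 2. Alternatives were quantile normalization again, centring on array medians, cyclic loess, array weights, a prior spread that follows level, a filter on mean log2 levels under 6.75, the mean of a gene's probe sets, other sets of arrays in the fit, the replicate block and each array left out.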

Additional observations from a re-analysis of the deposited data

Results flagged for a closer look

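Within groups of 4 to 7 arrays, 6 of 78 sets of levels of named members held an array far from the others by Dixon's criterion, which chance meets in about 1 in 20. Pax5+/- leukaemia 6, the array lowest for most members, stood out for Rps19, the Diamond-Blackfan anaemia gene (10.57, the others 11.28 to 11.65), and for the X-linked Rps4x (11.89, the others 12.44 to 12.75). Pax5+/- leukaemia 3 was low for the dim testis paralogue Rpl10l (5.35, the others 5.78 to 6.03). In B220+ cells array 1 was low for Rpl14 (9.24, the others 9.37 to 9.42) and array 2 for Rpl4 (11.49, the others 11.59 to 11.61). Wild-type precursor 2 was high for Rpl10 (13.32, the others at 13.25).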

How the results depend on the processing

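Counts in this section are members higher or lower at an adjusted p under 0.05. The share of all genes called can change with each alternative too and is not given here. The counts are therefore not read as results about the members. Against B220+ cells, the Pax5+/- leukaemias had 1 higher and 8 lower with a median of -0.071 when arrays were centred on their median, and 20 higher with cyclic loess, 16 with array weights and 16 with all 24 arrays in the fit. The BCR/ABL leukaemias had 1 higher with a median of -0.145 when centred, 5 higher and 0 lower with a median of 0.138 with cyclic loess, 0 and 0 with array weights, 0 lower with a prior that follows level, and 1 and 1 with the dim filter. Against wild type, the Pax5+/- precursors had 2 higher after quantile normalization, 2 with cyclic loess, and 5 higher and 8 lower with array weights. The BCR/ABL precursors had 1 lower after quantile normalization, 1 higher when centred, 0 lower with a median of 0.12 with cyclic loess, 5 lower with the mean of probe sets, and 1 and 1 in the fit of 24 arrays. B220+ cells against wild-type precursors had 0 lower when centred, 21 higher and 10 lower with array weights, and 17 and 9 with only those groups in the fit. Pax5+/- leukaemias against Pax5+/- precursors had 9 higher and 11 lower when centred, 2 lower with cyclic loess, and 9 higher with only those groups. The BCR/ABL pair of stages had 5 higher after quantile normalization, 2 lower with cyclic loess, 2 and 2 with array weights, and 4 and 1 with only those groups. Pax5+/- leukaemias against wild-type precursors had 3 lower after quantile normalization, 7 higher and 5 lower when centred, 33 higher with a median of 0.283 with cyclic loess, 2 lower with array weights or the mean of probe sets, 0 lower with the dim filter, and 11 higher with only those groups. The cause of these shifts was not tested. The number of arrays limits the precision, and no background level was used here to judge the dim Rpl3l, Rpl10l and Rpl39l.

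With the replicate number as a block, 14 members were higher in the Pax5+/- leukaemias and 1 higher and 1 lower in the BCR/ABL leukaemias against B220+ cells, 0 higher in the Pax5+/- precursors (Rpl38 lost, adjusted p = 0.0648) and 1 higher and 5 lower in the BCR/ABL precursors (Rps19, Rps9 and Rpl39l lost, 0.0818, 0.0941 and 0.082). Among the named calls of the Pax5+/- leukaemias against B220+ cells the block lost Rpl4 (0.0992) and Rps4l (0.079). Among those of the BCR/ABL leukaemias it lost Rpl28 (limma adjusted p = 0.163), Rps2 (0.104) and Rps4l (0.233). Between the Pax5+/- and BCR/ABL precursors it left 0 higher and 0 lower. From BCR/ABL precursors to BCR/ABL leukaemias it lost none of the named calls.

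With each array left out in turn, the numbers higher and lower ranged from 4 to 18 and 2 to 3 for Pax5+/- leukaemias against B220+ cells, 0 to 2 and 0 to 3 for BCR/ABL leukaemias, 0 to 1 and 0 to 1 between leukaemias, 0 to 1 higher for Pax5+/- precursors, 1 to 4 and 1 to 4 for BCR/ABL precursors, and 3 to 6 and 1 to 3 for B220+ cells against precursors. They ranged from 10 to 28 higher for the Pax5+/- stages, 8 to 28 higher for Pax5+/- leukaemias against wild-type precursors, 1 to 7 lower for the BCR/ABL stages, whose median ranged from -0.038 to 0.184, and 0 to 1 lower for the interaction. Of 60 named calls, 18 passed under all alternatives run and 42 were lost under at least 1, and 0 changed sign.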
